A study of Rattus norvegicus with 20 samples.

Results

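The unfolded protein response and the integrated stress response were followed through 32 genes in cortical collecting ducts, the part of the renal tubule where vasopressin makes the epithelium permeable to water. The genes were taken by symbol from the deposited table of 32545 genes: 15 chaperones and folding enzymes of the endoplasmic reticulum (ER), 6 genes of ER-associated degradation, 5 sensors and transcription factors, and 6 targets of the transcription factor Atf4. Each symbol matched 1 row, and all 32 were among the 14472 genes that passed the filter on low counts. The rule that named them used no measured value, but they were chosen with earlier results of these data known.

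The ducts were microdissected from 20 male Sprague-Dawley rats aged 5 weeks. Every rat, controls included, received the vasopressin V2 receptor agonist DDAVP at 5 ng per hour from a subcutaneous minipump. The 10 water-loaded rats took in 50 mL of water per day with gelled food and the 10 control rats 25 mL. Ducts were compared at day 1 (3 control and 3 water-loaded rats), day 2 (4 and 4) and day 4 (3 and 3), 1 library per rat. These days come from the sample titles, whereas the treatment protocol in the labels mentions dissection at 4 days only, so every value by day rests on the titles. The question is what changes in the duct when water loading is added to sustained vasopressin action, the setting of vasopressin escape. All comparisons are thus made under DDAVP, and samples from before the load were not analysed here.

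The unfolded protein response matches the folding capacity of the ER to the load of newly made secreted and membrane proteins. Ern1 (IRE1) splices Xbp1 mRNA, Atf6 is cut to release a transcription factor, and together these arms raise chaperone, folding and degradation genes. Eif2ak3 (PERK) phosphorylates the initiation factor eIF2, which lowers general translation but favours translation of Atf4. Other kinases reach Atf4 through the same factor, so its targets also respond to amino acid shortage and other stresses. Read counts per gene hold neither the splice form of Xbp1, nor the cleavage of Atf6, nor the translation of Atf4. In the collecting duct, principal cells make membrane water and sodium channels through the ER.

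Libraries held 33.5 to 74.9 M reads assigned to genes and detected 12665 to 15266 genes. By their TMM scaling factors, 0.645 and 0.686, day 1 control 1 and day 1 water-loaded 2 differed from the rest. The former had the highest summed level of immediate-early and dissociation genes, such as Fos and Egr1 (27740 CPM, read counts scaled to a common library size with TMM factors, against 2100 to 11860 in the other libraries). It also had the highest sums of fibroblast and pericyte markers (1564 CPM against 6.61 to 123 CPM) and of endothelial markers (1008 CPM against 32.1 to 918 CPM). Day 1 water-loaded 2 had the highest summed level of 17 proximal tubule markers, at 8518 CPM against 60.9 to 3012 elsewhere. The principal cell marker Aqp2 was at 2500 to 13330 FPKM, a level per transcript length, and the intercalated cell marker Hmx2 had a median of 1037 FPKM, and 7 of the 17 proximal tubule markers had a median under 0.1 FPKM. In such bulk samples, fewer cells of a type and less RNA per cell cannot be told apart.

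Promoter sequence was compared between the arms first. Of the 32 genes, 26 had an entry among the RefSeq promoter windows of build GRCr8, with 27 windows because Hyou1 had 2. A window ran from 250 bases before to 50 bases after the gene start. The ER stress response element (ERSE, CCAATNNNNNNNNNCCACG) is the site bound by Atf6 with NF-Y, and it was searched on both strands. It occurred in 22 of all 33465 windows (0.0657%) and in 7 of the 27 windows of the gene set. These were 6 of 13 windows of chaperones and folding enzymes, and that of Xbp1. It occurred in 0 of 5 windows of degradation genes and 0 of 6 of Atf4 targets. The matches are printed with 5 flanking bases, 5′ to 3′ on the strand of the motif, with the motif in capitals and the GRCr8 position of the printed bases, because ERSE was the motif most often found in chaperone windows.
Hspa5 (chr3:38452968-38452996): gttcaCCAATCGGAGGCCTCCACGacggg
Calr (chr19:40213130-40213158): ctgggCCAATCAGGGTCGACCACGcgttg
Canx (chr10:35158064-35158092): cttgtCCAATCATCACGCTCCACGaagaa
Creld2 (chr7:121789234-121789262): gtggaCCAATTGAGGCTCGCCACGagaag
Dnajc3 (chr15:102432529-102432557): caaagCCAATCAGCGCCAACCACGaccca
Hsp90b1 (chr7:23012342-23012370): acccaCCAATCGTGCCTCACCACGcactc
Hsp90b1 (chr7:23012446-23012474): caaacCCAATCGAAAGGAGCCACGcttcg
Xbp1 (chr14:84604553-84604581): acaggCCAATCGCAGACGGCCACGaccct

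The related element ERSE-II (ATTGGNCCACG) occurred in 17 of all windows (0.0508%) and in 3 genes here, Dnajb11, Herpud1 and Hyou1, which add a degradation gene and a pair of chaperone genes to the ERSE set.
Dnajb11: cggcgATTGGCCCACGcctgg
Herpud1: cgctgATTGGGCCACGttggg
Hyou1: tgcggATTGGCCCACGtcacg
Hyou1: tccccATTGGGCCACGtagaa

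The UPRE core (TGACGTGG), bound by Xbp1 and Atf6, occurred in 199 windows (0.595%) and here only in that of Hyou1, where it overlapped the first ERSE-II match. The C/EBP-ATF response element (TGATGNAA), through which Atf4 acts together with C/EBP factors, occurred in 1332 windows (3.98%). It was found in 3 windows of the set, 2 of them among the 6 Atf4 targets. Herpud1 held it beside its ERSE-II match.
Chac1: aggagTGATGCAAcggcg
Trib3: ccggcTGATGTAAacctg
Herpud1: cgggcTGATGCAAcccgc

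**Figure D1:**
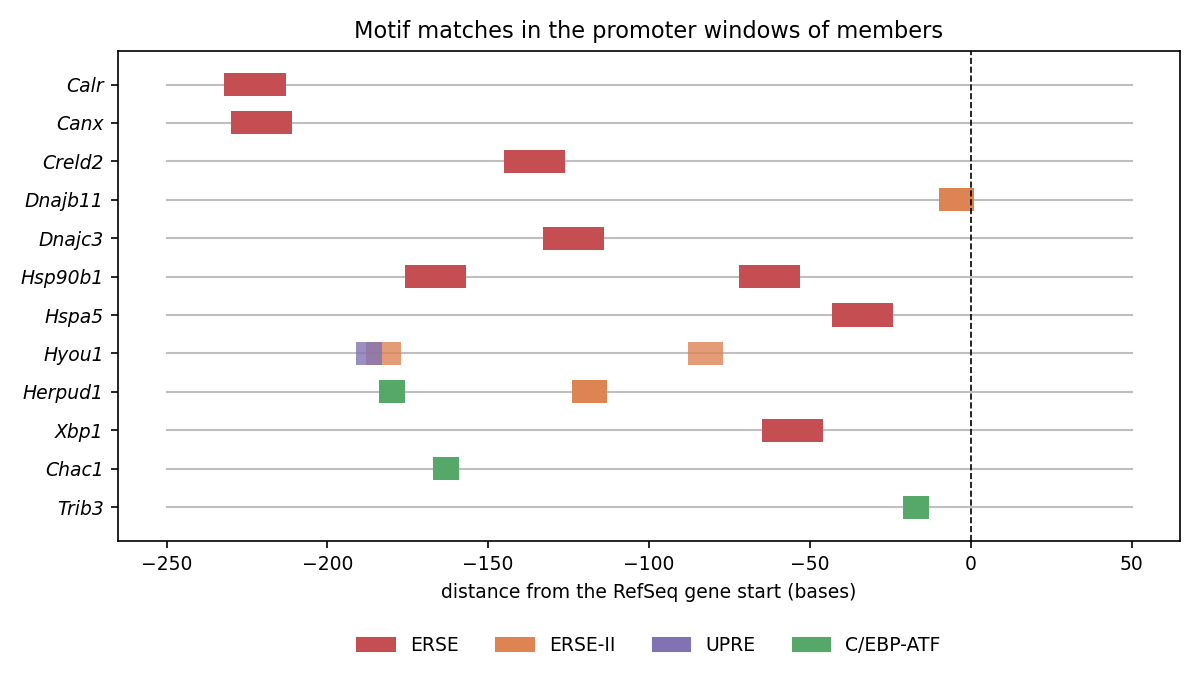
Positions of motif matches in the promoter windows of the 12 genes with at least 1 match, as distance in bases from the RefSeq gene start (dashed line); grey lines mark the window from 250 bases before to 50 after, and colours mark the motif. ERSE and ERSE-II matches lie on chaperone, degradation and Xbp1 promoters, and the C/EBP-ATF element on those of Herpud1, Chac1 and Trib3; the 2 windows of Hyou1 are drawn on 1 line.

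The ERSE match of Hspa5, the gene of the chaperone BiP, lies 25 to 43 bases before the start. Partial matches to the motif as spelled were not searched. The 250 bases before the start of Hspa5 (chr3:38452766-38453015, plus strand, GRCr8) are shown with that match in capitals, since Hspa5 is the reference chaperone of the response.
Hspa5: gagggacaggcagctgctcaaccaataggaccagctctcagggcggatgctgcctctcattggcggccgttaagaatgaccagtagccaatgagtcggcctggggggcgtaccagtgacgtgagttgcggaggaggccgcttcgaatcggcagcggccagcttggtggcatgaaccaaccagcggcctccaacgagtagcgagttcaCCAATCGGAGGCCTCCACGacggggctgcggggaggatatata

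The same stretches of Ddit3 (chr7:65001445-65001694, plus strand) and Asns (chr4:36769416-36769665, minus strand) are shown for the Atf4 arm. Neither window held any of the 4 motifs as spelled, which says nothing of binding by Atf4.
Ddit3: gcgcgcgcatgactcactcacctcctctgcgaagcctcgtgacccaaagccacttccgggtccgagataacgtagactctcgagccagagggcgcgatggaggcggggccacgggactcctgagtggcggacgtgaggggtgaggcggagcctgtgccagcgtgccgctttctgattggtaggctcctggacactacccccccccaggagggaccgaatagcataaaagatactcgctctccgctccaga
Asns: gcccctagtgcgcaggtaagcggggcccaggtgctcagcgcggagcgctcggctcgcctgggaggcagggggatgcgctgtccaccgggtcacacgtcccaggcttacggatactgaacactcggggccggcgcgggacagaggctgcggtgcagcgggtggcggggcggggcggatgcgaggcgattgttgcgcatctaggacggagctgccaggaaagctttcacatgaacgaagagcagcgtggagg

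The levels of the 32 genes spanned the range from abundant to nearly silent. By median FPKM over the 20 libraries, the highest was Pdia3, a disulfide isomerase of glycoprotein folding, at 667 FPKM. It was followed by Manf (354.7), Atf4 (325), P4hb (268) and Herpud1 (242 FPKM). The sensors were scarce, with Ern1 at 3.69, Eif2ak3 at 2.37 and Atf6 at 1.25 FPKM. Chac1, a glutathione-degrading enzyme and Atf4 target, was lowest at 0.0201 FPKM, with more than 3 counts in 9 of 20 libraries. The biological coefficient of variation had a median of 0.42 among chaperones (0.325 to 1.04) and of 0.96 among Atf4 targets (0.391 to 1.88). Taken by these medians, the Atf4 targets were measured with less precision than the chaperones. Reads of Atf6, Creld2, Ddit3, Herpud1, Pdia3 and Syvn1 carry a doubt, since these genes overlap another protein-coding gene on GRCr8 (Alg12 for Creld2, Mars1 for Ddit3, Catsper2 for Pdia3, Mrpl49 for Syvn1) and reads could have been mixed if strand was not used in counting.

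**Figure D2:**
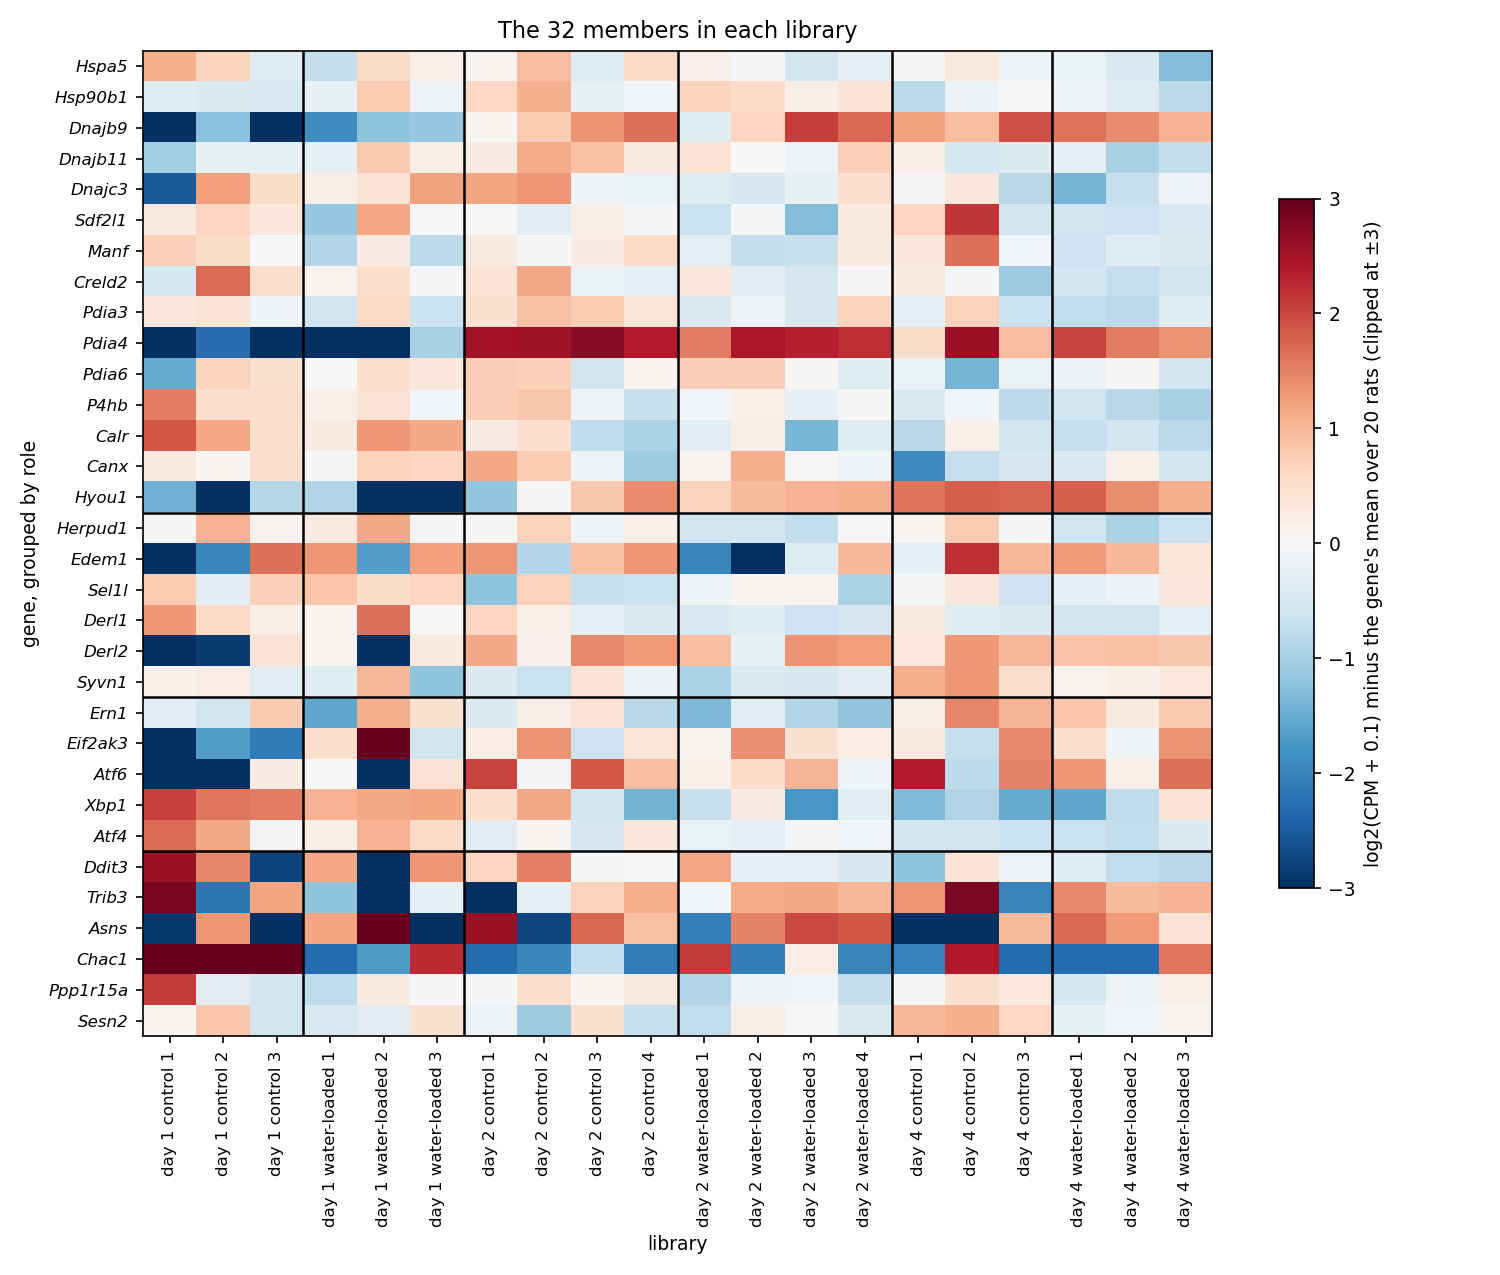
Level of each of the 32 genes (rows, grouped by role between black lines) in each of the 20 libraries (columns, groups between black lines), as log2(CPM + 0.1) minus the mean of the gene over all libraries. Pdia4, Hyou1 and Dnajb9 are low in the 6 libraries of day 1, where Xbp1 is high, and the Atf4 targets Asns, Trib3 and Chac1 vary most from rat to rat.

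None of the 32 genes was called for water load by edgeR's quasi-likelihood test with Benjamini-Hochberg adjustment over all genes. Over the average of the 3 days 0 of 32 were called, where 0.159% of all genes tested were. At day 1, at day 2 and at day 4 the count was also 0, as it was for the difference of the effect between days, and in each of these 0% of all genes were called. At an unadjusted p under 0.05 the set had 8 genes over the average (25% of it, against 13.5% of all genes). It had 2 at day 1 (6.25%, against 15.6% of all genes), 1 at day 2 (3.12%, against 5.23%) and 4 at day 4 (12.5%, against 7.22%), so its share was below that of all genes at days 1 and 2. DESeq2 called 2 of the 32 over the average (6.25%), Manf and Eif2ak3, where it called 714 of all 13674 genes. At day 1 it called 1 of the 32 (3.12%), Eif2ak3, where it called 1132 of all 13674 genes.

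The directions were uneven. Over the average of days 23 of 32 log2 differences (water-loaded minus control) were below 0, with a median of -0.30, whereas the median of all genes was 0.01 and 49% were below 0. Of the 32, 7 were lower at an unadjusted p under 0.05 (21.9% of the set), against 6.05% of all genes. At each of the 3 days 9 were lower (28.1%), against 17.1% of all genes. Those 9 were 7 chaperones and folding enzymes (Hspa5, Sdf2l1, Manf, Creld2, Pdia3, P4hb and Calr) and the Atf4 targets Ddit3 and Ppp1r15a. By day, the median of the set was 0.04 at day 1, -0.36 at day 2 and -0.37 at day 4, against 0.00, -0.05 and 0.00 over all genes. Genes of a set are not independent of each other, and these counts describe these rats only.

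Markers of several cell types and library measures also differed between the treatments, some in opposite directions on different days. Of 11 principal cell markers 10 were lower over the average, with a median of -0.28, and their summed level ranged from 14530 to 30020 CPM in water-loaded and from 26710 to 71280 CPM in control rats. The immediate-early and dissociation genes moved in the same direction, 18 of 18 tested being lower over the average with a median of -0.80. Their summed level was 2827 to 27740 CPM in control and 2100 to 11440 CPM in water-loaded rats, and 3 of the genes had a median under 0.1 FPKM. Higher over the average were 13 of 17 proximal tubule markers (median 1.78) and 9 of 12 immune cell markers (median 0.37). At day 4 all 6 fibroblast and pericyte markers tested (median 4.52) and all 7 endothelial markers (median 2.02) were higher; the former summed to 15.0 to 74.5 CPM in water-loaded and 6.61 to 9.32 CPM in control rats, and 4 of the 8 listed had a median under 0.1 FPKM. Also at day 4, water-loaded libraries detected 14279 to 14482 genes and control libraries 13071 to 13804, and TMM factors were 1.19 to 1.22 and 0.904 to 1.17, without overlap. With detected genes as a covariate the chaperone median over the average was -0.08 in place of -0.30, with the proximal tubule markers as one it was -0.29, and the part of the marker lists other than the proximal tubule markers was not tested.

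**Figure D3:**
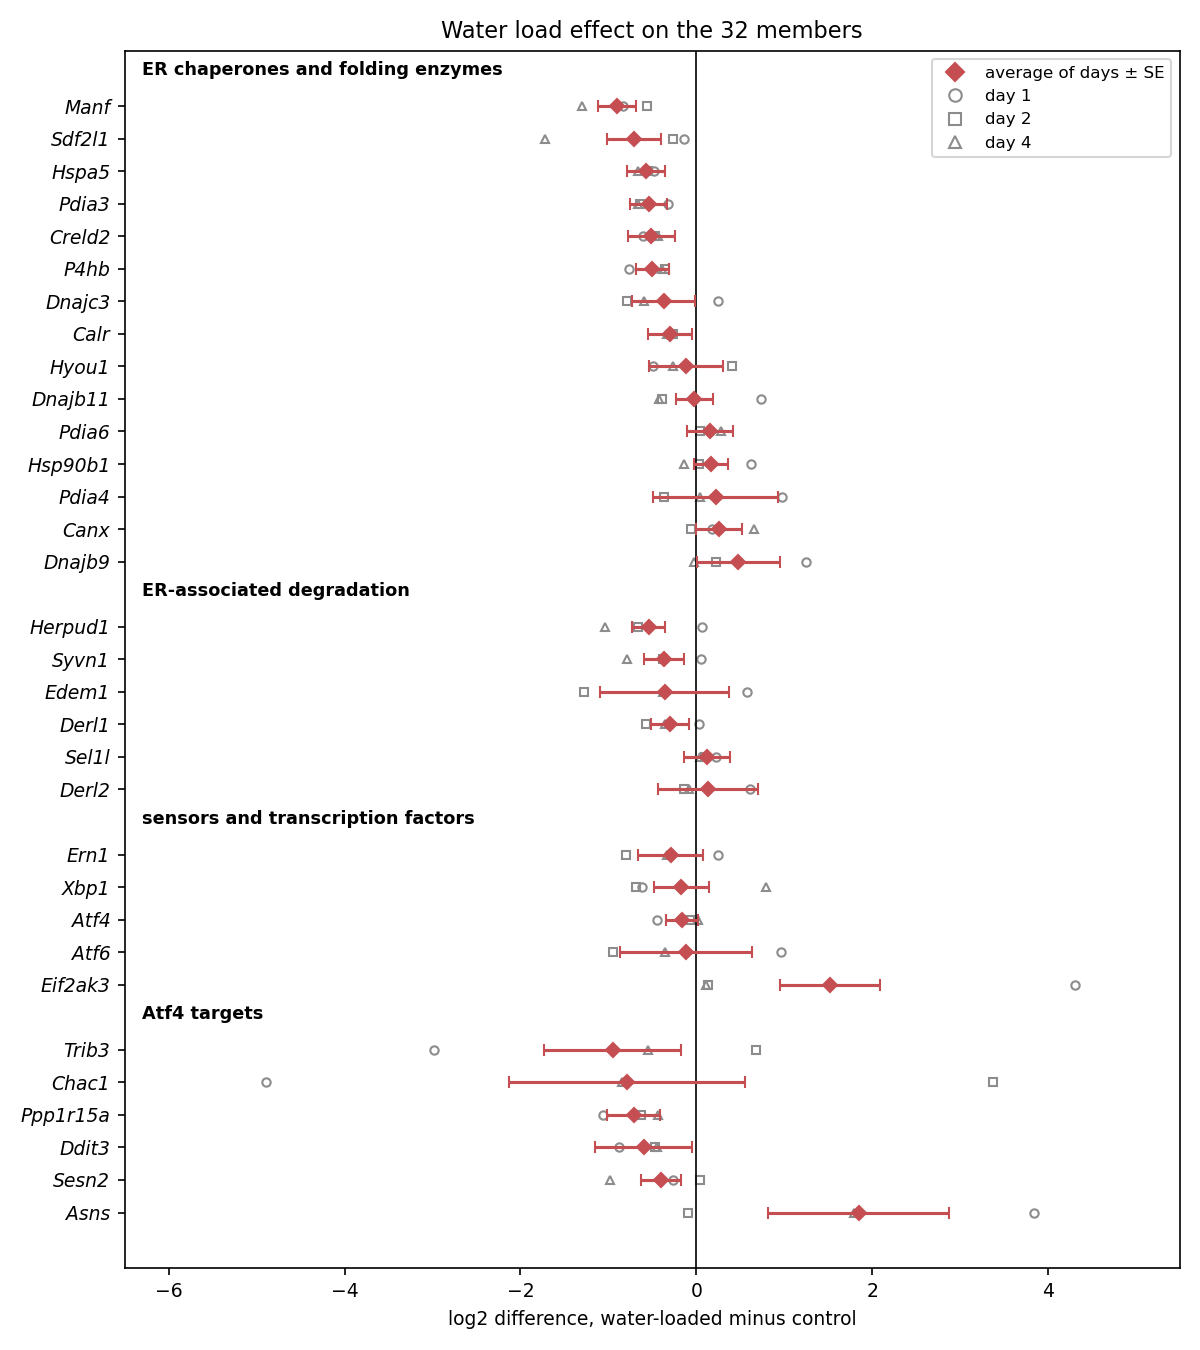
Fitted log2 difference, water-loaded minus control, of the 32 genes by role: red diamonds give the average of 3 days with its SE, and open circles, squares and triangles days 1, 2 and 4. The diamonds of the chaperones lie from -0.90 to 0.48, while Eif2ak3 (1.52) and Asns (1.85) lie far above 0.

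Among the 15 chaperones and folding enzymes 10 were lower over the average and 0 were called. Their median was -0.30, and by day -0.14, -0.35 and -0.39. In fits of the deposited FPKM it was -0.04 to -0.03 over the average and -0.06 at day 4, where the median of all genes was 0.03 to 0.22 and 0.06 to 0.35; with 1 library left out it ranged from -0.45 to -0.16 over the average, the latter without day 1 control 1, and it was -0.18 without day 4 control 2. At day 4, 12 of 15 were lower, and for Hspa5 and Manf the highest water-loaded rat was below the lowest control rat in TMM-scaled CPM. Over all 32 genes 5 had this separation at day 4 (15.6%, against 6.73% of all genes), the others being Herpud1, Syvn1 and Sesn2. At day 1 it held for 3, P4hb, Xbp1 and Chac1 (9.38%, against 5.17% of all genes), and at day 2 for 1, Ppp1r15a (3.12%, against 1.88%). At day 1, Hsp90b1 and Eif2ak3 had the reverse separation (6.25%, against 5.71% of all genes). The separations depended in part on the scaling. In the deposited FPKM 4 of the 5 genes were separate at day 4 (against 3.74% of all genes), while Hspa5 overlapped, at 173.8, 197.1 and 188.3 FPKM in control and 187.8, 157 and 85.9 FPKM in water-loaded rats. At day 2 Herpud1 was separate in FPKM (against 1.74% of all genes) and Ppp1r15a was not. At day 1 Manf joined P4hb, Xbp1 and Chac1 (4 genes, against 4.69%). Dnajb11 joined Hsp90b1 and Eif2ak3 in the reverse separation at day 1 in FPKM, for which the share of all genes is not given.

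Manf, a small ER protein that is secreted under ER stress, had the smallest p of the set. Its levels at day 1 were 498, 449 and 306 CPM in control and 166, 363 and 177 CPM in water-loaded rats. At day 2 they were 368, 292, 359.6 and 462 against 250.5, 187, 191 and 374 CPM. At day 4 they were 386, 962 and 288 against 200.1, 237 and 227 CPM. Of the 10 water-loaded rats 9 lay below the control median of their own day, and the groups were separate at day 4 only. The difference over the average was -0.90 on the log2 scale (SE 0.22), or 1.86-fold lower, with a p of 0.000764 and an adjusted p of 0.101, so it was not called. This was rank 109 of all genes. At day 4 the difference was -1.30, and it was -0.61 without the highest control rat of that day. The highest value, 962 CPM, came from day 4 control 2, which had the top value of 7 of the 32 genes.

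Hspa5 encodes BiP, the Hsp70 of the ER lumen, which also holds the sensors inactive. It measured 942, 721 and 352 CPM in day 1 control rats and 278, 659 and 505 CPM in day 1 water-loaded rats. At day 2 it measured 478, 862, 344 and 672 against 496, 432, 305 and 371 CPM. At day 4 it measured 464, 557 and 412.5 against 395, 329 and 184 CPM. All 10 water-loaded rats were below the control median of their own day, but the groups overlapped at days 1 and 2. The mean was 581 ± 211 CPM in control rats and 395 ± 135 CPM in water-loaded rats (SD, n = 10 each, over all days). The difference was -0.57 over the average (SE 0.22, adjusted p = 0.253), 1.48-fold lower, and it was -0.48, -0.55 and -0.66 at days 1, 2 and 4.

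The disulfide isomerases had fitted differences on either side of 0 over the average, and whether they differed from each other was not tested. Pdia3 measured 1705, 1787 and 1238 CPM in control against 905, 2010.0 and 864.5 CPM in water-loaded rats at day 1. It measured 1861, 2503, 2287 and 1728 against 1002, 1255, 961 and 2168 CPM at day 2, and 1129, 2197 and 859 against 808, 786.5 and 1051 CPM at day 4. In each day 1 or more water-loaded rats reached the range of the controls. Its difference was -0.54 (SE 0.21, adjusted p = 0.252). P4hb, the catalytic isomerase that is also a subunit of prolyl hydroxylase, measured 2002, 1004 and 998 against 768, 938 and 653 CPM at day 1, where the groups did not overlap. At day 2 its levels were 1153, 1214, 647 and 433 against 649.5, 765, 578 and 709.6 CPM, and at day 4 514, 649 and 396 against 454, 387 and 352 CPM. The spread of P4hb was wide in the controls of days 1 and 2 and narrow in the water-loaded rats. Its difference was -0.50 (SE 0.19, adjusted p = 0.249). It moved to -0.08 when detected genes entered as a covariate and to -0.30 in fits of FPKM, and at day 1 from -0.76 to -0.35 without day 1 control 1. Pdia6 (0.16, SE 0.26) and Pdia4 (0.22, SE 0.71), isomerases of the same family, lay on the other side of 0, each by less than its SE.

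Sdf2l1, a component of BiP complexes, had the largest difference of the chaperones at day 4. It measured 195, 546 and 85.1 CPM in control and 81.9, 80.1 and 89.5 CPM in water-loaded rats at that day, so the lowest control rat lay among the water-loaded rats. At day 1 it measured 151.5, 194 and 158 against 55.9, 278 and 123 CPM, and at day 2 124, 99.2, 142 and 119.9 against 79.4, 122, 50.4 and 151.5 CPM. The groups overlapped at every day. The day 4 difference of -1.72 (SE 0.57, adjusted p = 0.674) was -0.74 without day 4 control 2, and the difference over the average was -0.71 (SE 0.31, adjusted p = 0.32), or -0.39 without that rat.

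The remaining chaperones lay on both sides of 0 over the average. Creld2, Dnajc3, Calr, Hyou1 and Dnajb11 were at -0.51, -0.37, -0.30, -0.12 and -0.02. Hsp90b1 (GRP94, the Hsp90 of the ER) was at 0.17, the lectin chaperone Canx at 0.26 and the BiP co-chaperone Dnajb9 at 0.48. Their adjusted p ran from 0.436 (Creld2) to 1. Calr and Canx act on the same glycoproteins, yet their medians of 154 and 67.2 FPKM and their signs differed; the difference between them was not tested. ERSE matches were found on either side of 0: the 6 chaperone genes with one were Hspa5, Calr, Creld2 and Dnajc3, all below 0, and Hsp90b1 and Canx, both above 0.

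**Figure D4:**
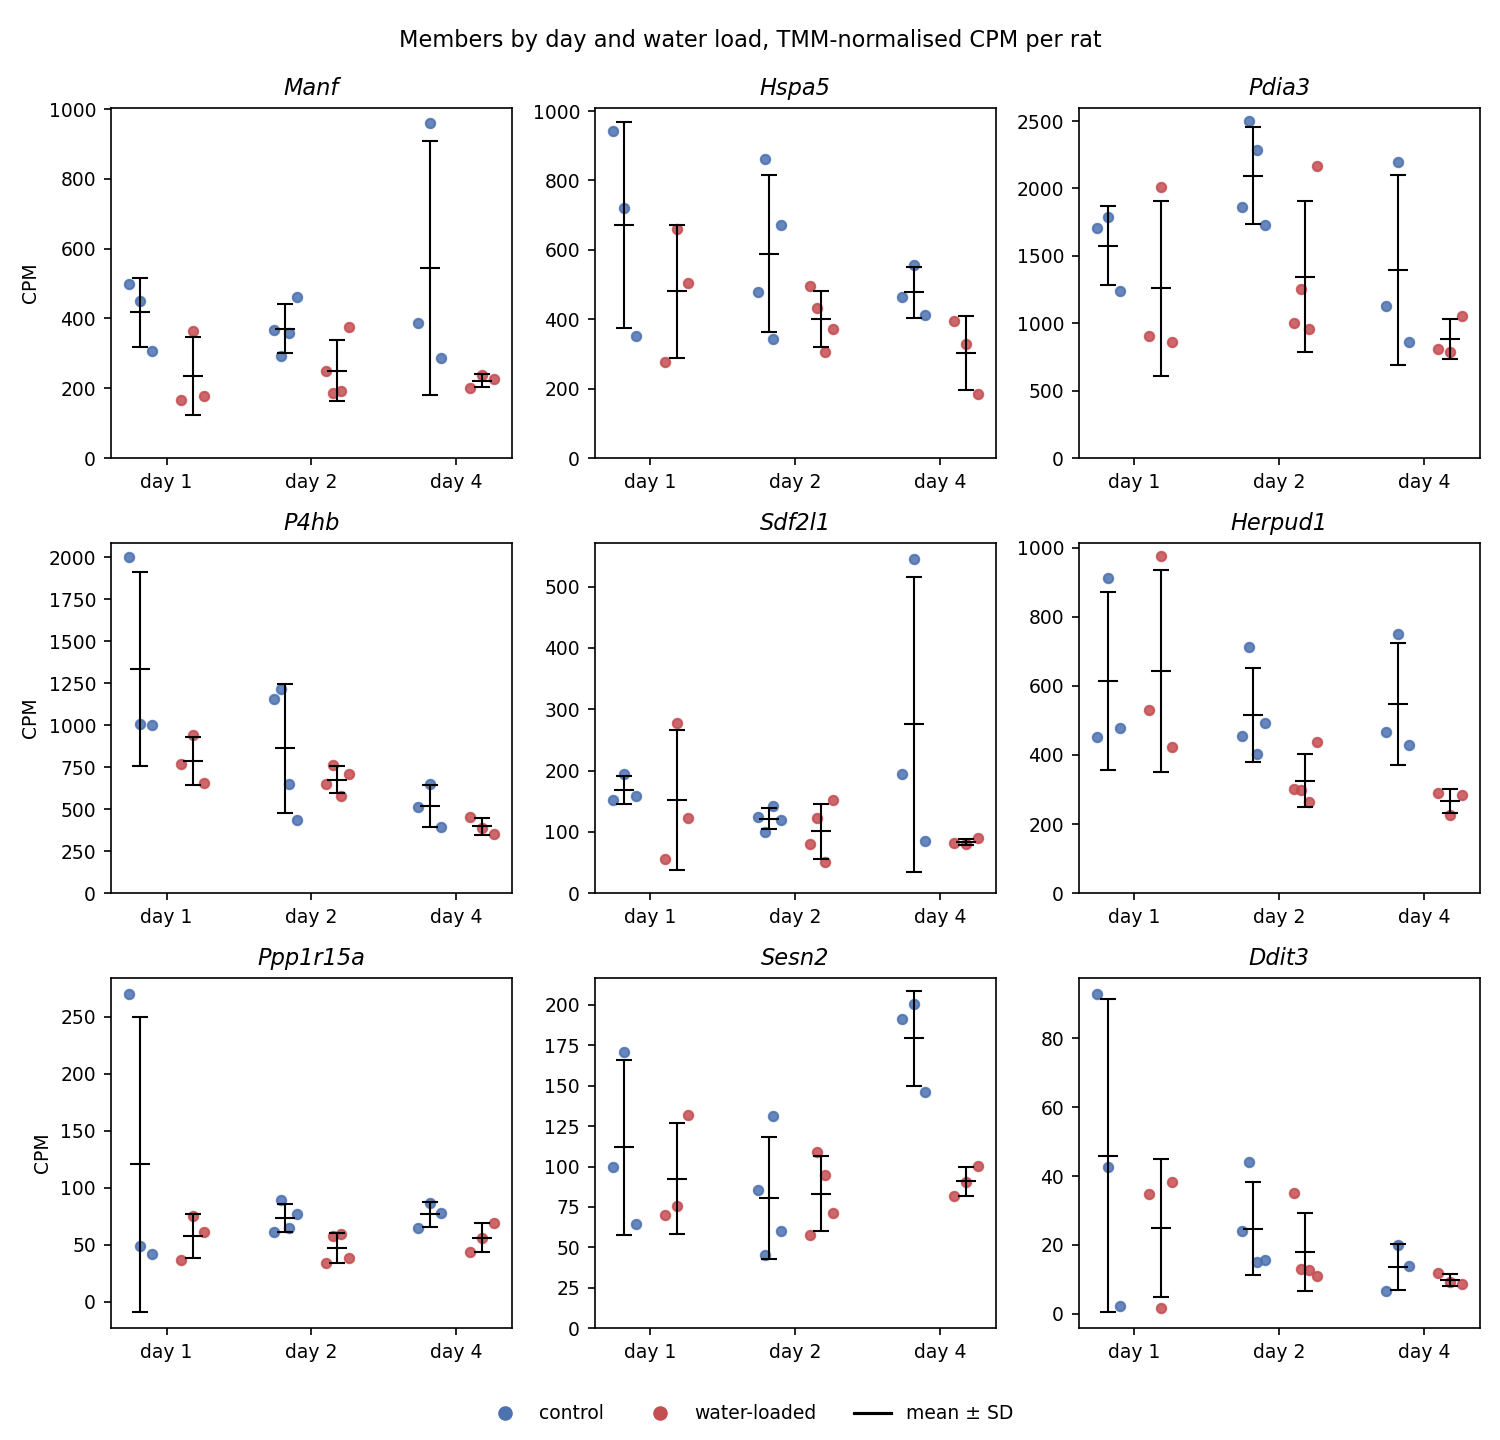
TMM-normalised CPM of 9 genes in every rat by day (blue, control; red, water-loaded; black, mean ± SD of 3 or 4 rats). Water-loaded rats sit lower in most panels, with overlap at most days; at day 4 Manf, Hspa5, Herpud1 and Sesn2 do not overlap, and single control rats set the tops of Sdf2l1 (546 CPM), Ppp1r15a (270.3 CPM) and Ddit3 (92.9 CPM).

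Of the 6 genes of ER-associated degradation, which return misfolded proteins to the cytosol for destruction, 4 were lower over the average (median -0.33) and 0 were called. All 6 were above 0 at day 1 (median 0.14) and 5 of 6 below 0 at day 2 (median -0.47) and at day 4 (median -0.37). The test of a difference between days called none of them, with adjusted p from 0.672 (Herpud1) to 1. These medians were not stable: that of day 4 was 0.01 to 0.05 in fits of FPKM and -0.16 without day 4 control 2, that of day 1 was -0.02 without day 1 water-loaded 2, and that of the average was -0.10 without day 1 control 3.

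Herpud1, an ER membrane protein that organises the degradation complex, measured 453, 912 and 477 CPM in control and 531, 977 and 422 CPM in water-loaded rats at day 1. At day 2 it measured 456, 712, 402.5 and 494 against 302, 299, 263 and 439 CPM. At day 4 it measured 467, 751 and 428 against 291, 227 and 284 CPM. The groups overlapped fully at day 1, in 1 water-loaded rat at day 2, and not at day 4. The difference went from 0.07 at day 1 to -0.66 (SE 0.30, adjusted p = 0.923) at day 2 and -1.04 (SE 0.35, adjusted p = 0.674) at day 4. Over the average it was -0.54 (SE 0.19, adjusted p = 0.215). Syvn1, the ubiquitin ligase Hrd1, was separate at day 4 too, at 339.8, 397 and 234 against 174, 184 and 202 CPM. Its day 4 difference was -0.79 (adjusted p = 0.721). Sel1l, the partner of Syvn1, and the derlins Derl1 and Derl2 had differences of 0.12, -0.30 and 0.13 over the average, and Edem1, which hands over misfolded glycoproteins, of -0.36.

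The sensors and transcription factors gave 4 of 5 values below 0 over the average (median -0.16). Eif2ak3, which encodes PERK, was the exception. It measured 0.111, 2.75 and 2.00 CPM in day 1 control and 13.0, 78.0 and 5.97 CPM in day 1 water-loaded rats. At day 2 it measured 10.5, 23.2, 5.80 and 11.6 against 9.55, 23.4, 12.5 and 10.6 CPM, and at day 4 11.1, 5.52 and 24.6 against 13.1, 8.25 and 23.0 CPM. The groups were separate at day 1, where the controls were lower than in any other group, and overlapped at days 2 and 4. The day 1 difference was 4.31 on the log2 scale (SE 1.15, adjusted p = 0.189), against 0.13 and 0.11 at the later days. The test of a difference between days gave an adjusted p of 0.462. The highest rat was day 1 water-loaded 2, which had the highest proximal tubule markers, and without it the day 1 difference was 2.56; on log2(FPKM + 1) it was 1.93. With the mean level of those markers as a covariate it was 3.19 (adjusted p = 0.339 by edgeR).

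Ern1 and Atf6, the other sensors, lay at -0.29 and -0.12 over the average with SE of 0.37 and 0.75. Ern1 ranged from 5.68 to 47.1 CPM over the 20 rats and Atf6 from 0.0276 to 22.4 CPM. A change of a small size in these genes was not detectable at this spread.

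Of the 6 Atf4 targets, 5 were lower over the average, with a median of -0.65 and 0 called. This median moved between days, from -0.97 at day 1 to -0.02 at day 2 and -0.50 at day 4. It rested on few rats: without day 1 control 1 the value over the average was -0.34, without day 4 control 2 it was -0.41, and in fits of FPKM it was -0.28 to -0.26. By day, without day 1 control 1 the day 1 value was -0.10, and without day 4 control 2 the day 4 value was 0.33. The mean went the other way at the later days: the mean log2 CPM of the 6 genes was 2.77 ± 0.637 in control and 3.25 ± 0.331 in water-loaded rats at day 2 (SD, n = 4 each), and 2.87 ± 0.762 and 3.16 ± 0.435 at day 4 (n = 3 each), with overlapping ranges. The corresponding chaperone medians at days 2 and 4 held their sign when any 1 rat was left out (-0.44 to -0.14 and -0.52 to -0.23), and that of day 1 ranged from -0.22 to 0.26.

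Ppp1r15a (GADD34) directs a phosphatase to eIF2 and so ends the translational block. It measured 270.3, 49.2 and 42.2 CPM in control against 36.7, 75.2 and 61.4 CPM in water-loaded rats at day 1. At day 2, 61.6, 89.0, 65.2 and 77.4 CPM stood against 34.1, 58.1, 59.7 and 38.1 CPM, and at day 4 64.7, 87.0 and 78.0 against 43.5, 56.1 and 69.3 CPM. The groups were separate at day 2, and day 1 control 1 was far above the next rat, at 89.0 CPM. The difference over the average was -0.71 (SE 0.30, adjusted p = 0.296), and -0.24 without that rat. In that rat the immediate-early genes and the fibroblast and endothelial markers were also at their highest, and their part in the value was not tested.

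Ddit3 encodes CHOP, the factor that links long ER stress to cell death. It measured 92.9, 42.7 and 2.19 CPM in control and 34.7, 1.75 and 38.3 CPM in water-loaded rats at day 1. At day 2 it measured 24.0, 44.2, 15.1 and 15.7 against 35.0, 13.1, 12.6 and 11.0 CPM, and at day 4 6.63, 20.1 and 13.9 against 11.9, 9.18 and 8.71 CPM. The groups overlapped at every day. The difference was -0.60 with an SE of 0.55 (adjusted p = 0.742), -0.25 without day 1 control 1, and -0.06 without that library and day 1 water-loaded 2.

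Sesn2, a stress-induced inhibitor of mTORC1, measured 99.8, 171 and 64.7 against 69.9, 75.6 and 132 CPM at day 1, control against water-loaded. At day 2 it measured 85.7, 45.1, 131 and 60.4 against 57.5, 109, 94.8 and 71.0 CPM. At day 4 it measured 191.5, 200.4 and 146 against 82.0, 90.1 and 100.3 CPM. The separation at day 4 came with high control rats, since the water-loaded rats stayed in the range of the earlier days. The day 4 difference was -0.98 (SE 0.42, adjusted p = 0.674), and without any 1 rat it stayed between -1.11 and -0.90.

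Asns, asparagine synthetase, differed in sign from the other Atf4 targets, at 1.85 with an SE of 1.03. It ranged from 0.0657 to 89.8 CPM, and 1 rat, day 1 water-loaded 2, gave the top value. Trib3, a pseudokinase induced with CHOP, lay at -0.95 (SE 0.78). Chac1 measured 44.2, 16.7 and 8.23 CPM in day 1 control rats (1600, 912 and 501 counts) against 0, 2 and 104 counts in day 1 water-loaded rats. In the other 14 libraries it had at most 133 counts, and the fitted difference at day 1 had an adjusted p of 0.399.

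The contrast of the arms can be read from the mean log2 CPM of the 15 chaperones minus that of the 6 Atf4 targets in each rat. In control rats it was 2.81 ± 1.47 at day 1 (n = 3), 5.03 ± 0.833 at day 2 (n = 4) and 4.62 ± 0.486 at day 4 (n = 3), as mean ± SD. In water-loaded rats it was 4.15 ± 0.548, 4.32 ± 0.513 and 4.01 ± 0.544, for the same days and numbers. The water-loaded rats were thus above the controls in mean at day 1 and below them at days 2 and 4, with ranges that overlapped at every day. At day 1 the chaperone means were 6.83 in control and 6.82 in water-loaded rats, and those of the Atf4 targets 4.02 and 2.67. These means give each gene equal weight, also the nearly silent Chac1, with more than 3 counts in 9 of 20 libraries. Chac1 had 1600, 912 and 501 against 0, 2 and 104 counts at day 1, and its part in the contrast was not tested. The lowest value, 1.24, came from day 1 control 1, in which 4 of 6 Atf4 targets had their highest value, while 4 of 15 chaperones had their lowest and 3 their highest.

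The days were compared within each treatment. In control rats 2 of the 32 genes, Xbp1 and Atf4, were called over the 3 days, against 2.45% of all genes. In water-loaded rats 0 were called, against 0.263% of all genes, which does not show that none changed. At an unadjusted p under 0.05 there were 14 (43.8% of the set, against 22.5% of all genes) and 11 (34.4%, against 12.1%).

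Xbp1, the transcription factor of the Ern1 arm, was highest at day 1 in each treatment. It measured 640.0, 467 and 442 CPM in day 1 control rats, 214, 339, 103 and 57.0 CPM at day 2, and 61.0, 82.7 and 53.7 CPM at day 4. In water-loaded rats it measured 319, 339 and 349 CPM at day 1, 95.7, 182, 46.1 and 122 CPM at day 2, and 52.0, 89.8 and 200 CPM at day 4. Day 1 lay above both later days without overlap in each treatment, and days 2 and 4 overlapped. From day 1 to day 4 the level in control rats fell by 2.97 on the log2 scale (SE 0.60), 7.84-fold, with an adjusted p of 0.0256 for the days together. In water-loaded rats the difference was -1.56 (SE 0.57) and the adjusted p 0.214. The difference by water load was -0.62, -0.68 and 0.79 at days 1, 2 and 4, and -0.17 (SE 0.31) over the average.

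Atf4, the effector of the integrated stress response, followed the same course. It measured 1642, 1130.0 and 498 CPM in day 1 control rats, 402, 541, 363 and 648 CPM at day 2, and 342, 343 and 326 CPM at day 4. In water-loaded rats it measured 580.0, 1063 and 759 CPM, then 446, 431, 499.8 and 486 CPM, then 330.0, 309.6 and 385 CPM. Day 4 lay below days 1 and 2 without overlap in each treatment. From day 1 to day 4 it fell by 1.69 (SE 0.34) in control rats, 3.24-fold, with an adjusted p of 0.0219 for the days together. In water-loaded rats the difference was -1.23 (SE 0.33), with an adjusted p of 0.176. Over the average the water load difference was -0.16 (SE 0.18).

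Both calls depended on day 1 control 1, which had the highest Xbp1 and Atf4 of all rats in TMM-scaled CPM. In the deposited FPKM its Xbp1 was 370.9, against 398.8 and 399.4 in the other day 1 control rats. Its Atf4 was 751 FPKM, against 761.7 and 355.1 FPKM. Without day 1 control 1 the adjusted p was 0.0978 for Xbp1 and 0.124 for Atf4. In that fit 0 of the 32 genes were called over the days in control rats, against 51 of all 14472 genes. Without day 4 control 1 the values were 0.0706 and 0.0529, and the count was also 0, against 96 of all genes. Atf4 was also not called by limma-voom (0.0548). Xbp1 alone was lost without day 4 control 2 (0.0558) or 3 (0.0544). The immediate-early genes moved with the days too: their summed level was 2827, 11860 and 27740 CPM in day 1 control rats, against 3289 to 6354 CPM at day 2 and 4871 to 7114 CPM at day 4. The part of these genes, and of the fibroblast and endothelial markers of day 1 control 1, in the fall of Xbp1 and Atf4 was not tested. No source used here says whether ducts of different days were prepared together, so the day and the preparation cannot be told apart.

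Some chaperones went the other way with time, without passing the test. Hyou1 (GRP170, which reloads BiP with nucleotide) measured 9.78, 1.78 and 14.7 CPM in day 1 control rats, 11.9, 25.5, 46.7 and 71.7 CPM at day 2, and 82.9, 93.5 and 89.6 CPM at day 4. In water-loaded rats it measured 14.2, 1.43 and 3.12 CPM, then 43.1, 51.8, 54.65 and 57.0 CPM, then 92.2, 70.4 and 57.3 CPM. In the water-loaded rats each day lay above the day before. The difference of day 4 from day 1 was 3.34 (SE 0.82) in control and 3.55 (SE 0.83) in water-loaded rats, with adjusted p of 0.0656 and 0.124 for the days together.

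Dnajb9 and Pdia4 were also lowest at day 1 in each treatment. In control rats Dnajb9 was at 5.18 ± 7.21 CPM in day 1 control rats (SD, n = 3), 67.6 ± 29.9 CPM at day 2 (n = 4) and 86.1 ± 31.9 CPM at day 4 (n = 3), with an adjusted p of 0.0534. Pdia4 was at 1.21 ± 1.43, 83.4 ± 7.86 and 44.2 ± 34.9 CPM, with an adjusted p of 0.0798. From day 1 to day 2 the fitted difference was 3.70 (SE 0.92) in control and 2.67 (SE 0.87) in water-loaded rats for Dnajb9, and 6.10 (SE 1.57) and 4.74 (SE 1.47) for Pdia4. The test of whether water load differed between days gave adjusted p of 0.992 and 1, which does not show that the courses were alike. In these genes and in each treatment day 1 lay below day 2 and day 4 without overlap. Calr and P4hb, by contrast, were lower later: Calr went from 763 ± 356 to 292 ± 139 and 244 ± 91.4 CPM and P4hb from 1335 ± 578 to 862 ± 382 and 519.6 ± 126 CPM in control rats, with adjusted p of 0.0575 and 0.0796. With a filter of a mean of 5 CPM these 5 genes were called together with Xbp1 and Atf4, where 559 of all 9168 genes tested were. The chaperones thus had values of either sign over time. The median of all 32 genes from day 1 to day 4 was -0.17 in control and -0.68 in water-loaded rats, against 0.00 and 0.01 over all genes.

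**Figure D5:**
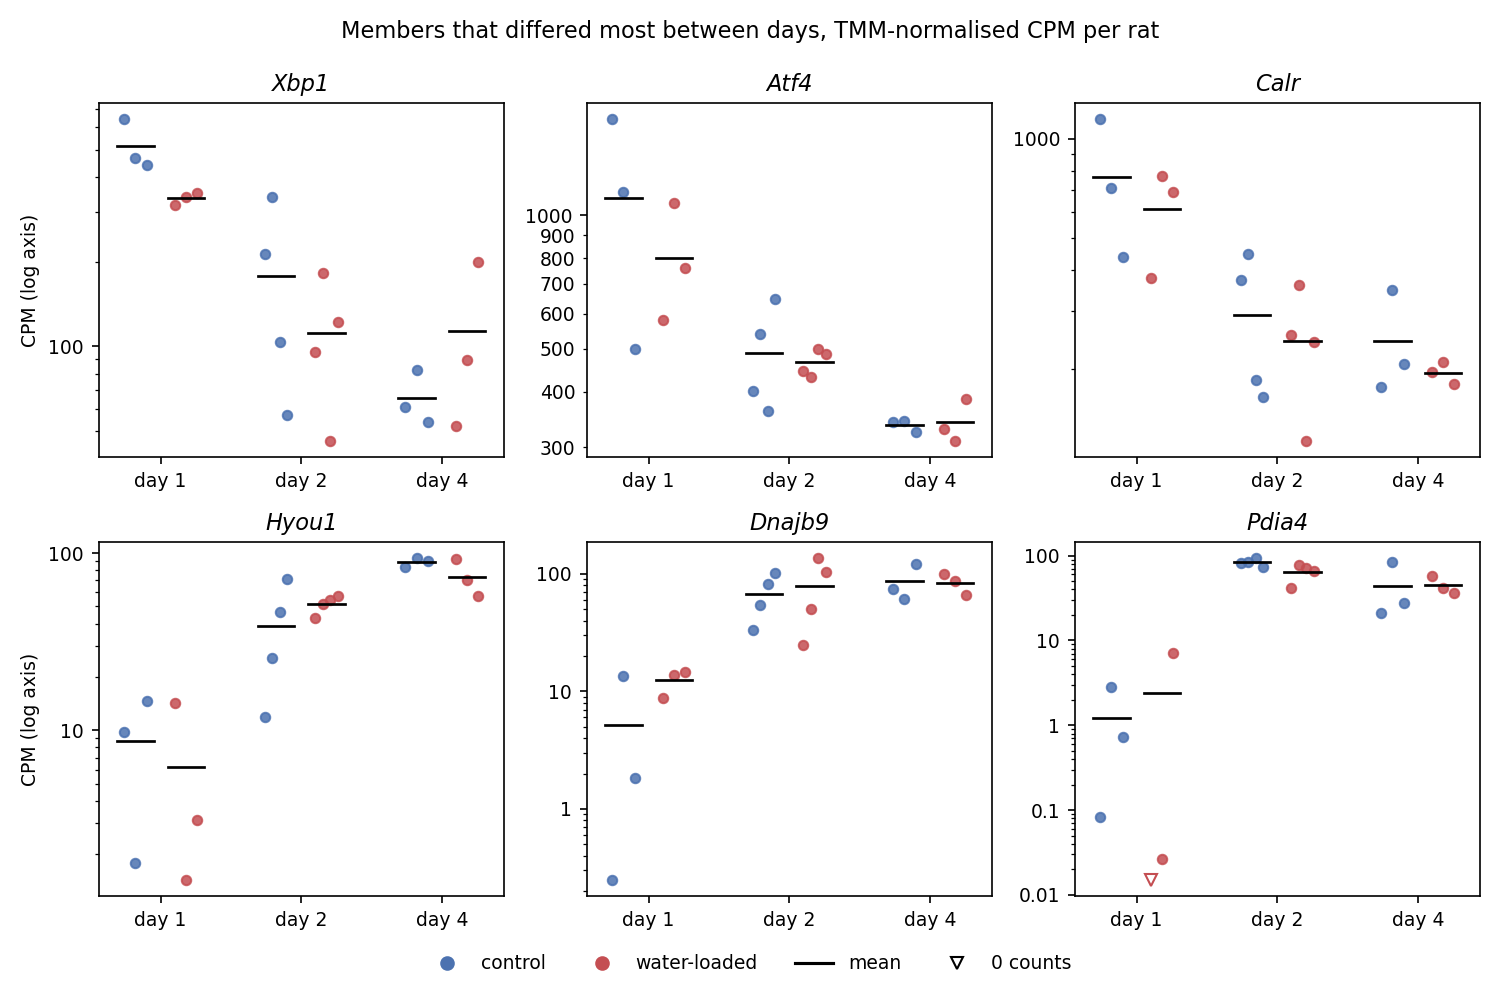
TMM-normalised CPM on a log axis of 6 genes in every rat by day (blue, control; red, water-loaded; black lines, means; open triangle, the 1 library with 0 counts of Pdia4). Xbp1, Atf4 and Calr are highest at day 1 and Hyou1, Dnajb9 and Pdia4 lowest at day 1, in each treatment.

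The wider pathway was read from 3 further lists, of which 0 genes were called by water load in any contrast. Of 41 tested genes of ER entry and folding 26 were lower over the average (median -0.11). The smallest p belonged to Serp1, which stabilises membrane proteins at the translocon (-0.56, adjusted p = 0.178), Ppib, the ER cyclophilin (-0.57, 0.186), and Erlec1, an ER lectin (-0.57, 0.186). Of 21 other sensors and regulators 8 were lower (median 0.12), with Bax, a pore-forming death factor, at -0.78, Ppp1r15b, the constitutive partner of the eIF2 phosphatase, at -0.64, and Rtcb, the ligase that joins spliced Xbp1, at 0.60. Of 31 tested other Atf4 target genes 16 were lower (median -0.04). The transfer RNA synthetases Eprs and Wars were at 0.76 and 1.40, and the stress cytokine Gdf15 was at -1.37 (adjusted p 0.154, 0.187 and 0.215). Of the 12 aminoacyl-tRNA synthetase genes tested 9 were above 0 and 3 (Aars, Gars and Yars) below 0, from -0.34 to 1.55.

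Over the days in control rats 3 of the 41 ER entry and folding genes were called, where 2.45% of all genes tested were. Ssr3, a translocon-associated subunit, went from 20.3 ± 7.55 CPM at day 1 to 302 ± 120 CPM at day 2 and 253 ± 104 CPM at day 4 (adjusted p = 0.00194). Vimp, a selenoprotein of the degradation complex, went from 36.0 ± 15.98 to 216.5 ± 100.4 and 148 ± 8.79 CPM (adjusted p = 0.0084), and Dnajc1, a BiP co-chaperone, from 117 ± 30.7 to 35.5 ± 28.2 and 21.7 ± 7.39 CPM (adjusted p = 0.048). Of the Atf4 target genes 2 of 31 were called, Atf3 and Cebpg, against the same share of all genes. Atf3, an early stress factor that is also induced by tissue dissociation, went from 4552 ± 4136 to 344 ± 334 and 217 ± 112 CPM (adjusted p = 0.0212). Cebpg, the partner of Atf4 on its elements, went from 109.8 ± 11.9 to 40.7 ± 21.9 and 19.2 ± 9.33 CPM (adjusted p = 0.0282). The fall of Atf3 and Cebpg ran in the direction of that of Atf4, and the rise of Ssr3 and Vimp in that of the values of Hyou1, Dnajb9 and Pdia4. Dnajc1 fell, in the direction of the values of Calr and P4hb. Calls over all genes went from 355 to 51 without day 1 control 1 and to 96 without day 4 control 1. Whether the genes named here were still called in those fits is not given.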

How the data were processed

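The measurement was RNA sequencing of hand-dissected collecting ducts from 20 rats. Lysed tubules went straight into cDNA synthesis and amplification by a single-cell method, per the labels' protocols, without molecular identifiers. The floors given below thus cover counting error only, while SE and SD hold the spread between libraries. Such amplification can turn scarce transcripts on or off between libraries. The deposited counts are whole reads per gene, per the file headers and values. The submitters' processing notes name Trimmomatic 0.32, STAR 2.4.0.1, SAMtools, HTSeq and rn6; their settings, the annotation and any use of strand were not given in the sources used here. Reads assigned to no gene, 31.5% to 35.6% of each library's counts, were left out. A count of 1 was worth 0.0138 to 0.0309 CPM and the floor of 3 counts 0.0414 to 0.0926 CPM. The FPKM values deposited by the authors served for levels between genes and for alternatives.

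Counts were fitted with edgeR 4.0.16 in R 4.3.3 (filterByExpr, TMM, 1 robust quasi-likelihood fit of all 20 libraries with a mean per group) and tested for water load at each day, for its average, for its difference between days, and for days within each treatment (F tests). The SE is the log2 difference divided by the square root of F. Adjusted p is Benjamini-Hochberg over 14472 genes, with a threshold of 0.05. Alternatives used limma 3.58.1, DESeq2 1.42.0, log2(FPKM + 1), other filters and covariates, and each library left out. Libraries with identical counts numbered 0. With 1 library per rat, p rests on the spread between libraries, in which rat, dissection and amplification cannot be told apart.

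The members and lists were chosen with earlier results of these data known. Named are Hspa5, Xbp1, Atf4 and Ddit3, the members that were called or had an unadjusted p under 0.05 for water load, and, of the further lists, genes called or with the 3 smallest p over the average. Hyou1, Dnajb9, Pdia4, Calr and P4hb over time, and Syvn1, Chac1 and Asns per rat, were named after their values were seen. Of 230 list entries 4 matched no row. Same-numbered rats of day 2 correlated at 0.148, 0.147, 0.154 and 0.236 in their deviations from group means, all over 0.1, and those of days 1 and 4 at -0.0907 to 0.0595. On GRCr8 12 of the 32 genes overlap another gene. Coordinates are those of the RefSeq table, not of rn6.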

Additional observations from a re-analysis of the deposited data

Results flagged for a closer look

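Among the 64 groups of 4 rats looked at (32 genes in the 2 groups of day 2), 4 held a rat whose log2 level stood apart from the other 3 beyond Dixon's 95% limit, and chance gives about 5% of groups. All 4 were in water-loaded rats of day 2. Canx was at 682.1 CPM in water-loaded 2, against 296.2 to 341.6 CPM in the others. The other 3 were Atf4 targets in water-loaded 1: Ddit3 was high at 34.97 CPM (others 11.04 to 13.06 CPM), Trib3 low at 6.185 CPM (13.2 to 14.45 CPM) and Asns low at 0.5232 CPM (7.182 to 10 CPM).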

How the results depend on the processing

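With 3 or 4 rats a group, a common coefficient of variation of 1.06 over all genes, and amplified libraries, only large changes of scarce members could be seen, and medians of lists rest on few genes. Of the members called by water load, the counts stayed at 0 under all alternatives except DESeq2, which gave 2 over the average (Manf -0.88, adjusted p = 0.0212, range over alternatives 0.0212 to 0.302; Eif2ak3 1.57, 0.0451, range 0.0451 to 0.518) and 1 at day 1 (Eif2ak3 4.43, 0.000129, range 0.000129 to 0.646). Over the days in control rats the count of 2 became 7 with a filter of a mean of 5 CPM, 5 with limma-voom (Dnajb9, Pdia4, Hyou1, Xbp1 and Chac1, not Atf4), 6 in each of the 3 fits of log2(FPKM), 8 with DESeq2, 0 without the 2 libraries that stood apart, and 0 to 7 with 1 library left out. Over the days in water-loaded rats the count of 0 became 1 with limma-voom, 2 in each of the 3 fits of log2(FPKM), 4 with DESeq2, and 0 to 1 with 1 library left out. Calls over all genes moved too. For water load they went with DESeq2 from 23 to 714 of 13674 over the average and from 0 to 1132 of 13674 at day 1. In control rats they went from 355 of 14472 to 559 of 9168 with the 5 CPM filter and 508 with limma-voom. They were 368 to 455 with log2(FPKM), 1586 of 12694 with DESeq2, 201 without the 2 libraries and 51 to 599 with 1 left out. In water-loaded rats they went from 38 to 101 with limma-voom, 124 to 131 with log2(FPKM), 517 of 12185 with DESeq2 and 5 to 78 with 1 left out. Among the list medians, chaperones at day 4 moved to -0.06 in each of the 3 fits of log2(FPKM), whose median over all genes at that day was up to 0.35, and at day 1 from -0.22 to 0.26 with 1 library left out. Atf4 targets at day 1 moved to -0.17 without the 2 libraries, and with 1 left out from -1.46 to -0.10; at day 4 from -0.76 to 0.33. In the fits of log2(FPKM), differences were also nearer to 0 for Ppp1r15a (-0.43 to -0.42 over the average), Ddit3 (-0.34 to -0.31), Sdf2l1 at day 4 (-1.05 to -1.04) and Manf at day 4 (-0.84 to -0.83). Over the average, Xbp1 turned to 0.46 with detected genes as a covariate, and ranged from -0.40 to 0.00 with 1 library left out, and Atf4 turned to 0.02 in each of the 3 fits of log2(FPKM). The cause was not tested. The fit with the replicate number within each day as a block pairs same-numbered rats at days 1, 2 and 4. It called 0 members for water load in each comparison and gave -0.25 for the chaperone median over the average. There it called 5 of all genes in place of 23. Days within a treatment, which held the only 2 member calls, could not be fitted with the block.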
